A study of Mus musculus with 12 samples.

Results

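The starvation response of BRUCE knockdown fibroblasts was followed in 6 of the 12 RNA-Seq libraries of the series. They were 3 libraries of shBruce#1 MEFs grown in full medium (FM) and 3 of the same line after 2 h in a medium without serum and amino acids (Starv), and they were chosen by their labels alone. MEFs are fibroblasts from mouse embryos, and shBruce#1 is a short hairpin RNA against Birc6, the gene that encodes BRUCE, a giant ubiquitin-conjugating enzyme of the inhibitor of apoptosis family. The 6 other libraries came from MEFs with a control hairpin against Renilla luciferase (shRenilla), 3 in FM and 3 in Starv, and are used here for comparison. All 4 groups thus expressed a hairpin, and each hairpin was represented by a single line, so other differences between the lines cannot be told apart from the knockdown. The labels do not say whether replicates were separate cultures, so p-values measure the spread between these libraries, which may be technical.

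The guide strand of shBruce#1 is shown because it defines the line, with its seed (bases 2 to 8) in capitals.
Birc6.766 guide: tTTTAAACcatctttgagctgt
Birc6 lies at chr17:74528295-74703356 (GRCm38, plus strand). Its normalized count was 1207, 1265 and 1390.4 in shBruce FM and 1175, 703 and 1226 in shBruce Starv, against 4682, 3273 and 5061 in shRenilla FM, so every shBruce library was below every shRenilla FM library. Starvation itself gave no change of Birc6 past the threshold in shBruce MEFs (log2 fold change -0.32, standard error 0.24, adjusted p = 0.367), and its FM and Starv libraries overlapped.

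Cells read a loss of amino acids in several ways. Uncharged tRNAs activate the kinase GCN2, which phosphorylates eIF2alpha, slows translation and favours that of ATF4, a factor that induces amino acid transporters, synthesis enzymes and the stress factor CHOP. At the same time mTORC1 is switched off, which frees TFEB to enter the nucleus and induce lysosomal and autophagy genes, and the loss of serum growth factors lowers AKT, ERK and TGF-beta signalling, so that FOXO factors become active while immediate-early, YAP and SRF target genes lose their drive. BRUCE is known as a regulator of autophagy.

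The 6 shBruce libraries held 7717265 (Starv replicate 1) to 14802390 counts. The 3 shBruce Starv libraries were the least alike of any group, with an SD of the log2 difference between replicates of 0.556 to 0.756, against 0.293 to 0.526 in shBruce FM and 0.211 to 0.32 in shRenilla. Their deviation from the mean of all libraries of the line, FM and Starv together, followed transcript length in different directions. Spearman's rho over 12051 genes was -0.167, -0.415 and 0.313 in Starv replicates 1, 2 and 3, and -0.385 to 0.366 in shRenilla libraries. These deviations hold the starvation response as well as the spread between replicates. The 12 fibroblast markers, such as collagens, vimentin and fibronectin, summed to normalized counts of 177887 to 213077 in FM and 143340 to 175279 in Starv, and 1 of the 11 tested passed the threshold, Twist1, which fell (log2 fold change -1.22, standard error 0.17, adjusted p = 3.7e-04). The fibroblast marker Thy1 was at 0 counts in FM. The 5 epithelial markers summed to 2.12 to 7.33 in FM and 2.79 to 44.4 in Starv, with 1 of them at 0 counts in each medium, and 4 endothelial markers to 6.94 to 22.0 and 22.4 to 52.5. The 5 markers of macrophages and blood summed to 109 to 146 in FM and 82.8 to 113 in Starv, of which Cd68 was called lower (-0.65, adjusted p = 0.0386), a call lost in 9 of the 12 fits that left out 1 library, all but those without shRenilla Starv replicate 3, shBruce FM replicate 3 and shBruce Starv replicate 2 (log2 fold changes -0.89 to -0.54 over the 12 fits). The 3 pluripotency markers summed to 283 to 641 and 120 to 330, with Pou5f1 at 0 counts in FM. The 3 neural markers summed to 481 to 802 and 595 to 905, of which Tubb3 rose (0.49, adjusted p = 0.0198), a call lost without shBruce FM replicate 1 (0.43, adjusted p = 0.0837) or 2 (0.49, adjusted p = 0.058). The part of such cells in the results below was not tested.

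Starvation for 2 h changed the level of 2790 genes in shBruce MEFs. Of 12154 genes tested, 1506 were higher (12.4% of those tested) and 1284 were lower (10.6%) at an adjusted p under 0.05 from edgeR's quasi-likelihood test, fitted on all 12 libraries. At least 2-fold, 633 genes were higher and 287 lower, and at least 8-fold, 30 were higher and 20 lower. The median log2 fold change over all genes tested was 0.02, which serves below as the background for the median of each gene list. Likewise, the shares of 12.4% higher and 10.6% lower are the background for the counts of each list. In 1963 genes (16.2%) all 3 Starv libraries lay above all 3 FM libraries, and in 1796 (14.8%) below them. Fitted on the 6 shBruce libraries alone, the test called 552 genes higher and 404 lower. With upper-quartile normalization, the split moved to 1991 higher and 933 lower. The count was lowest without shBruce FM replicate 2 (975 higher and 880 lower) or replicate 1 (986 and 930), and highest without shBruce Starv replicate 3 (1974 and 2035). A lower level in bulk RNA can come from fewer cells of a type or from less RNA per cell, which cannot be told apart here.

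**Figure D1:**
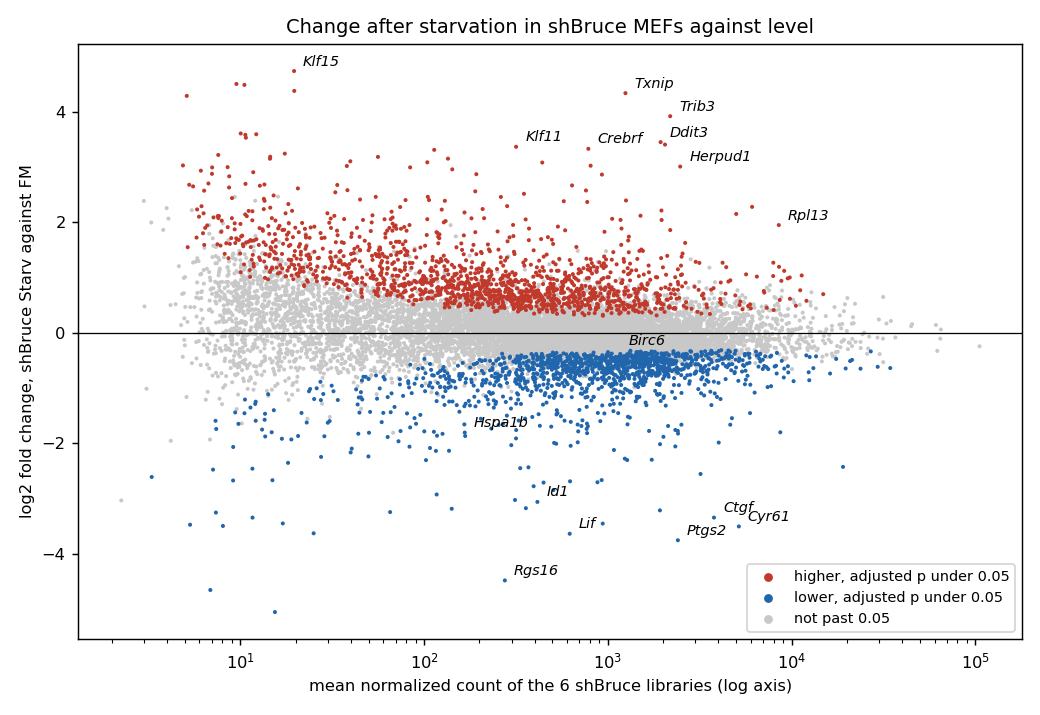
Log2 fold change of each of the 12154 genes tested in shBruce MEFs (Starv against FM) against its mean normalized count in the 6 shBruce libraries (log axis). Red points were higher (1506) and blue points lower (1284) at an adjusted p under 0.05, and grey points did not pass. Txnip and Trib3 stand at the top among well-counted genes and Rgs16 at the bottom, and Birc6 is close to 0.

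The 5 genes chosen to mark this response were Txnip, Trib3, Ddit3 and Klf11, which rose, and Rgs16, which fell. They were chosen with these values known. Txnip (chr3:96557957-96561883), which encodes an alpha-arrestin that binds thioredoxin and limits glucose uptake, was counted at 128, 129.8 and 95.2 in FM and at 1171, 1669 and 4296 in Starv. All Starv libraries were far above all FM libraries, but replicate 3 held more than the other Starv libraries together. The mean rose 20.3-fold (log2 fold change 4.34, standard error 0.40, adjusted p = 1.2e-05, 95% confidence interval 3.48 to 5.20). Trib3 (chr2:152337422-152344032), a pseudokinase that feeds back on ATF4 and AKT, rose from 231, 226 and 353 in FM to 3623, 3916 and 4767 in Starv, which is 15.2-fold (log2 fold change 3.92, standard error 0.19, adjusted p = 6.8e-08). Its Starv libraries lay close together. Ddit3 (chr10:127290774-127296288) encodes CHOP, the factor that follows ATF4, and rose from 289.9, 369.5 and 313 in FM to 3193, 2925 and 4542 in Starv (11.0-fold, log2 fold change 3.45, standard error 0.18, adjusted p = 1.5e-07). Klf11 (chr12:24651274-24662789), a zinc finger repressor of the Kruppel-like family, rose from 67.96, 49.2 and 51.6 in FM to 386, 533 and 815 in Starv (10.3-fold, log2 fold change 3.37, standard error 0.25, adjusted p = 2.0e-06), with the lowest Starv library still several times above the highest FM library.

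Rgs16 (chr1:153740349-153745468) showed the reverse pattern. It encodes a GTPase-activating protein that ends signalling by G protein alpha subunits, and its normalized count fell from 596, 627 and 362 in FM to 14.1, 33.1 and 20.4 in Starv, a 22.3-fold lower level (log2 fold change -4.48, standard error 0.27, adjusted p = 3.5e-07, 95% confidence interval -5.07 to -3.89). FM replicate 3 was the lowest of the FM libraries, as it was for Ptgs2, Lif, Ccl2 and Cyr61 below. None of these 5 genes had libraries that overlapped between the media, and none lost its call in any alternative fit that tested it or when any 1 library was left out. Of 9 RGS genes tested, 2 were higher and 2 lower (median -0.46). Rgs2 (1.04, adjusted p = 0.0281), Rgs12 (0.44, adjusted p = 0.0496) and Rgs19 (-0.54, adjusted p = 0.0442) were the other calls, lost in 4, 11 and 10 of the 12 fits that left out 1 library. In shRenilla MEFs, 1 was higher and 2 lower. For each of the 5 marking genes, the exact permutation test gave a two-sided p of 0.1, the smallest that 3 libraries against 3 allow.

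**Figure D2:**
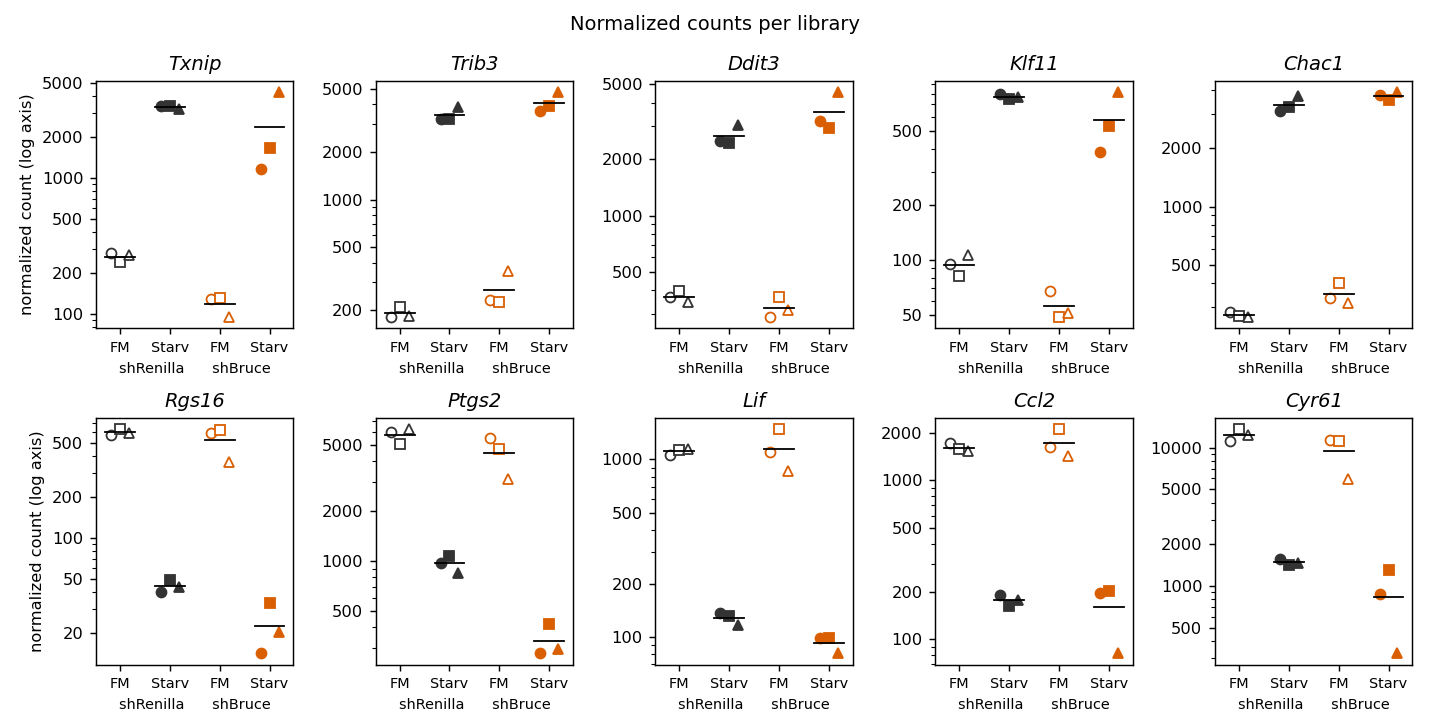
Normalized counts (log axis, a separate scale for each gene) of 10 genes in the 12 libraries, with circles, squares and triangles for replicates 1, 2 and 3, open symbols for FM and filled ones for Starv, shRenilla in black and shBruce in orange, and a line at each mean. The 5 genes of the upper row are higher and the 5 of the lower row lower in every Starv library of both lines, and the shBruce Starv libraries spread more widely for Txnip, Klf11, Ccl2 and Cyr61.

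The regulators of the ATF4 and CHOP branch were mostly higher. Of 20 members tested (of 21 listed, Gdf15 did not pass the filter on low counts), 17 were higher and 1 was lower, with a median log2 fold change of 1.22. Chac1, whose product degrades glutathione, rose from 338, 404 and 315 in FM to 3777, 3547 and 3910.3 in Starv (log2 fold change 3.41, standard error 0.13, adjusted p = 1.3e-08), with little spread between libraries. Gadd45a, a growth arrest and stress protein, rose from 206, 232 and 234 in FM to 1425, 1884 and 1594 in Starv (log2 fold change 2.87, standard error 0.14, adjusted p = 6.8e-08). Sesn2 encodes a leucine sensor that restrains mTORC1 and was counted at 166, 222 and 172 in FM and 434, 747 and 1717 in Starv (log2 fold change 2.38, standard error 0.37, adjusted p = 6.6e-04). Its Starv values differed several-fold between replicates, all above FM. Fgf21, a secreted hormone of the fasting state, was nearly absent in FM (4.25, 1.05 and 0) and reached 28.3, 50.1 and 34.4 in Starv (adjusted p = 2.3e-04). The factors themselves moved less. Atf4 rose by a log2 fold change of 1.12, Atf3 of 1.12, Atf5 of 1.17, Cebpb of 1.06 and Cebpg of 1.19. Ppp1r15a, the phosphatase subunit that reverses eIF2alpha phosphorylation, rose by 1.83 and the mTORC1 inhibitor Ddit4 by 1.26. The member that fell was Eif2ak4, which encodes GCN2 itself (log2 fold change -0.52, standard error 0.14, adjusted p = 0.0157), and this call was lost without shBruce FM replicate 2 (-0.41, adjusted p = 0.0734) and in the fit of the shBruce libraries alone (-0.51, adjusted p = 0.113). Eif2ak3, which encodes PERK, had a log2 fold change of 0.26, adjusted p = 0.501, and Stc2 of 0.29, adjusted p = 0.218. In shRenilla MEFs, 17 of these members passed as higher and 0 as lower, with a median of 1.33.

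The promoters of the named genes were searched for 4 short motifs, on both strands, in RefSeq windows of 300 bases (250 before and 50 after the start, GRCm38.p6) that were available for 133 of the 165 named genes. TGATGNAA is the core of the composite element to which ATF4 and CEBP partners bind. It stood in the window of 9 of 74 rising and 2 of 57 falling named genes with a window, and in 3.97% of all 32817 windows. The 9 rising genes were Trib3, Chac1, Herpud1, Fgf21, Asns, Slc7a11, Slc1a4, Aars and Tubb3. TGTTTAC, a FOXO element, stood in windows of 6 rising genes, among them Txnip and Klf9, and 2 falling genes (3.65% of all windows). CACGTG, the E-box, stood in windows of 17 rising and 11 falling genes (7.15%). TGACGTCA, the cAMP response element, stood in windows of 2 rising and 4 falling genes (1.79%). Rising genes were named in part from lists of ATF4 and CHOP regulators, amino acid genes and FOXO targets. Their counts are therefore not an independent comparison with the share over all windows. A gene counted if any of its windows held the motif, while the percentages are shares of single windows. These matches describe the letters only, and none of those printed here overlaps another. The 250 bases before the start are shown for 4 genes that rose with the composite element, and for Txnip with the FOXO element, each match in capitals, on either strand. The windows are Chac1 (chr2:119350992-119351241, plus strand), Asns (chr6:7693210-7693459, minus strand), Slc7a11 (chr3:50443614-50443863, minus strand), Fgf21 (chr7:45615491-45615740, minus strand) and Txnip (chr3:96557707-96557956, plus strand).
Chac1: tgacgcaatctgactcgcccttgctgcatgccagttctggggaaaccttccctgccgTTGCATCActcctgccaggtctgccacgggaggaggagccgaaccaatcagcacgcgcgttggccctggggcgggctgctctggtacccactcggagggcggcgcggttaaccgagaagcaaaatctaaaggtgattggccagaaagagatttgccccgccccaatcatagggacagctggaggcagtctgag
Asns: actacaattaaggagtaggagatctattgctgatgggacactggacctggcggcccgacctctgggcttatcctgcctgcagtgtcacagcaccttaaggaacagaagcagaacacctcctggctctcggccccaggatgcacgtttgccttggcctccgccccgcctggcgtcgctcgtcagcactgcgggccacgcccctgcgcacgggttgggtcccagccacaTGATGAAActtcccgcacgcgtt
Slc7a11: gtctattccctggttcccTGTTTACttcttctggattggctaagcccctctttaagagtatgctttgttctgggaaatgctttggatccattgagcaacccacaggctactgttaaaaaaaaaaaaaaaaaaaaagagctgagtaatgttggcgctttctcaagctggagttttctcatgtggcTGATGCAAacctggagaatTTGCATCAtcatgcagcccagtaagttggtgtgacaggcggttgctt
Fgf21: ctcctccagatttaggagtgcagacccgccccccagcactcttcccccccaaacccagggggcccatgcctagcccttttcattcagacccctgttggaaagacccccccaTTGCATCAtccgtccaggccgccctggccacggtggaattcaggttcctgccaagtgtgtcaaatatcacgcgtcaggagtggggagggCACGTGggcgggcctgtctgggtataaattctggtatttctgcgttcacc
Txnip: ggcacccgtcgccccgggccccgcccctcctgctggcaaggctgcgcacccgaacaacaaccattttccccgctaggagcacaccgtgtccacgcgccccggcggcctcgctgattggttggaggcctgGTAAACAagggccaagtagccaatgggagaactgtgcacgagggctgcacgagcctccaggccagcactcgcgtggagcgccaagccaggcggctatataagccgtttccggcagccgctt
The composite element begins 193 bases before the start in Chac1, 23 in Asns, 66 and 47 in Slc7a11 and 139 in Fgf21. Fgf21 also holds an E-box 50 bases and Slc7a11 a FOXO element 232 bases before the start. In Txnip the FOXO element begins 121 bases before it.

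Amino acid carriers, which bring amino acids into the cell, were mostly higher. Of 13 carriers tested, 9 were higher and 1 lower (median 0.96). Slc7a11, the cystine carrier, rose from 46.7, 39.8 and 131 in FM to 325, 285 and 424 in Starv (log2 fold change 2.24, standard error 0.37, adjusted p = 9.3e-04), with FM replicate 3 above the other FM libraries but well below Starv. Slc1a4, a carrier of small neutral amino acids, rose from 487, 462 and 566 in FM to 1550.2, 1678 and 2382 in Starv (log2 fold change 1.89, standard error 0.16, adjusted p = 4.6e-06). Slc3a2, the heavy chain shared by several carriers, rose from 4593, 4735 and 4659 in FM to 9786, 10075 and 13904 in Starv (log2 fold change 1.27, standard error 0.14, adjusted p = 5.9e-05) and Slc6a9, a glycine carrier, by 1.59. The carrier that fell was Slc7a6 (log2 fold change -0.77, standard error 0.13, adjusted p = 0.00134). Among 18 synthesis enzymes, 5 were higher and 0 lower (median 0.40). Counts for the synthesis enzymes were 2 higher in the fit of the shBruce libraries alone, 3 higher without shBruce FM replicate 1 or 2, 8 higher without shBruce FM replicate 3 and 9 higher without shBruce Starv replicate 1. Gpt2, the mitochondrial alanine transaminase, rose from 426, 486 and 938 in FM to 1675, 1814 and 2408 in Starv (log2 fold change 1.67, standard error 0.24, adjusted p = 4.2e-04), Mthfd2 of the mitochondrial folate pathway by 0.84 and Bcat1, a branched-chain transaminase, by 0.53. Asns, asparagine synthetase, passed at 0.55, adjusted p = 0.0294, with FM at 2786, 2705 and 4442 and Starv at 4790.0, 5032 and 4771. FM replicate 3 lay near the Starv libraries, and the call was lost without shBruce FM replicate 1 (0.44, adjusted p = 0.127), FM replicate 2 (0.42, adjusted p = 0.127) or Starv replicate 2 (0.53, adjusted p = 0.0629). The serine pathway enzymes Phgdh (0.17, adjusted p = 0.425), Psat1 (-0.05, adjusted p = 0.869) and Psph (0.64, adjusted p = 0.056) did not pass. Of 20 cytosolic aminoacyl-tRNA synthetases, 6 were higher and 0 lower, with log2 fold changes of 0.71 for Cars, 0.62 for Aars and 0.60 for Sars, the largest, and a list median of 0.16. The call of Aars was lost without shBruce FM replicate 1 (0.53, adjusted p = 0.0514). Counts for the synthetases were 0 higher in the fit of the shBruce libraries alone, 2 higher without shBruce FM replicate 1 and 3 higher without shBruce FM replicate 2. In shRenilla MEFs, 10 of the carriers, 8 of the synthesis enzymes and 9 of the synthetases passed as higher, and 0, 1 and 1 as lower.

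Txnip was accompanied by 3 further alpha-arrestins. Arrdc4, which like Txnip limits glucose uptake, rose from 41.4, 35.6 and 14.9 in FM to 78.7, 111 and 143 in Starv (log2 fold change 1.89, standard error 0.30, adjusted p = 8.3e-04) and Arrdc2 rose by 1.32, adjusted p = 3.4e-04. Arrdc1 was close to the threshold (0.47, adjusted p = 0.0441), and its call was lost in 9 of the 12 fits that left out 1 library, all but those without shBruce FM replicate 3, shBruce Starv replicate 2 and shBruce Starv replicate 3 (log2 fold changes 0.35 to 0.61 over the 12 fits). The factor Mlx, the partner of MondoA at the carbohydrate response elements of these genes, fell from 1018, 1042 and 857 in FM to 412, 447 and 502 in Starv (log2 fold change -1.10, standard error 0.13, adjusted p = 1.1e-04), and Mlxip, which encodes MondoA, fell by 0.55 (adjusted p = 0.0216), a call lost without shBruce FM replicate 1 (-0.52, adjusted p = 0.0741), FM replicate 2 (-0.54, adjusted p = 0.063) or Starv replicate 2 (-0.43, adjusted p = 0.0668). Arrdc3 had a log2 fold change of -0.80, adjusted p = 0.28.

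FOXO factors are held in the cytosol by AKT when growth factors are present. Of 22 FOXO factors and target genes tested, 9 were higher and 1 lower (median 0.32). The lower member was Cited2, a transcriptional coregulator (-0.39, adjusted p = 0.0294), a call lost without shBruce FM replicate 1 (-0.36, adjusted p = 0.0977), FM replicate 2 (-0.43, adjusted p = 0.0545) or Starv replicate 2 (-0.31, adjusted p = 0.0779) and with upper-quartile normalization (-0.31, adjusted p = 0.0708). The factors did not change at the RNA level past the threshold, with log2 fold changes of 0.07 for Foxo1, 0.03 for Foxo3 and -0.01 for Foxo4. Among their targets, Fbxo32, a ubiquitin ligase subunit of muscle atrophy, rose from 99.8, 105 and 74.4 in FM to 709, 744 and 909 in Starv (log2 fold change 3.08, standard error 0.16, adjusted p = 9.8e-08). Ccng2, an atypical cyclin of quiescent cells, rose from 149, 154 and 219 in FM to 709, 1246 and 1358 in Starv (log2 fold change 2.67, standard error 0.23, adjusted p = 7.6e-06). Tsc22d3, which encodes GILZ, rose by 2.58, the PI3K inhibitor Pik3ip1 by 2.56, the insulin receptor substrate Irs2 by 1.36 and the BH3-only gene Bbc3 by 1.51. Klf15, a factor of the fasting response, stood at 3.19, 0 and 0.99 in FM and 18.2, 34.1 and 61.3 in Starv (adjusted p = 2.3e-04), and no fold is given for counts this low in FM. In shRenilla MEFs, 10 of these members passed as higher and 0 as lower, with a median of 0.72.

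Kruppel-like factors split. Of 15 tested, 6 were higher and 2 lower (median 0.48), where 12.4% of all genes tested were higher and 10.6% lower. After Klf11 and Klf15, Klf9 rose from 574, 489.9 and 621 in FM to 3787, 1790.4 and 1781 in Starv (log2 fold change 2.12, standard error 0.25, adjusted p = 7.7e-05), with Starv replicate 1 well above the other Starv libraries. Klf2, a factor of quiescence in endothelium and T cells, rose by 1.28 (adjusted p = 0.00308), while Klf13 fell (log2 fold change -0.75, standard error 0.14, adjusted p = 0.0026) and Klf16 fell (log2 fold change -0.60, standard error 0.15, adjusted p = 0.0112). Klf6, with a log2 fold change of 0.38, adjusted p = 0.157, and Klf10 (0.48, adjusted p = 0.0798) did not pass. For the difference between the lines, 3 of the 15 had an unadjusted p under 0.05 in edgeR's test, against 3.9% of all genes tested. None passed an adjusted p of 0.05.

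Genes of the autophagy and lysosome system rose in part. Of 42 autophagy genes, 12 were higher and 1 lower (median 0.24). Atg14, a subunit of the PI3K complex that starts autophagosomes, rose from 255, 237 and 214 in FM to 717, 749 and 805 in Starv (log2 fold change 1.69, standard error 0.12, adjusted p = 1.0e-06), with no overlap and little spread. Sqstm1, which encodes the cargo receptor p62, rose from 6367, 7365 and 8555 in FM to 14265, 14926 and 16659 in Starv (log2 fold change 1.04, standard error 0.13, adjusted p = 1.3e-04), and Map1lc3b, which encodes LC3B, rose from 716, 736 and 888 in FM to 2372, 1698 and 1523 in Starv (log2 fold change 1.25, standard error 0.16, adjusted p = 1.7e-04), highest in Starv replicate 1. Atg13 rose by 0.86, Atg12 by 0.80, Gabarapl1 by 0.71 and the receptor Nbr1 by 0.79. Counts for the autophagy genes were 6 higher in the fit of the shBruce libraries alone, 0 lower without shBruce FM replicate 1 or 2 and in the fit of the shBruce libraries alone and 3 lower without shBruce Starv replicate 3. Atg16l1 was the member that fell (-0.49, adjusted p = 0.0295), and its call was lost without shBruce FM replicate 1 (-0.48, adjusted p = 0.0797) or 2 (-0.47, adjusted p = 0.0856). Gabarap had a log2 fold change of 0.22, adjusted p = 0.362, Atg5 of 0.18, adjusted p = 0.356 and Becn1 of -0.14, adjusted p = 0.442. In shRenilla MEFs, 13 of these members passed as higher and 0 as lower, with a median of 0.28.

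Of 40 lysosomal genes, 14 were higher and 0 lower (median 0.23). The largest rises were those of regulators that act with the Rag GTPases on mTORC1 and TFEB. Fnip1, the partner of folliculin, rose from 832, 619.7 and 628 in FM to 4237, 2575 and 2864 in Starv (log2 fold change 2.22, standard error 0.21, adjusted p = 1.5e-05), Fnip2 rose by 1.26, Flcn, folliculin itself, by 0.95 and the Rag GTPase Rragd by 1.29. The factors Tfeb (-0.28, adjusted p = 0.374), Tfe3 (-0.17, adjusted p = 0.241) and Mitf (-0.23, adjusted p = 0.492) did not pass. Among hydrolases, Gla, alpha-galactosidase, rose from 341, 358 and 329 in FM to 575, 711 and 617 in Starv (log2 fold change 0.89, standard error 0.12, adjusted p = 2.1e-04), Neu1 by 0.70, Naglu by 0.67 and Hexa by 0.60, while the cathepsins Ctsb (0.27, adjusted p = 0.0778), Ctsd (0.23, adjusted p = 0.29) and Ctsl (-0.09, adjusted p = 0.752) and the membrane protein Lamp1 (0.19, adjusted p = 0.197) did not pass. Counts for the lysosomal genes were 5 higher in the fit of the shBruce libraries alone and 9 higher without shBruce FM replicate 1. In shRenilla MEFs, 5 of the 40 passed as higher and 0 as lower, and 4 of the 40 had an unadjusted p under 0.05 in the test of the difference between the lines, against 3.9% of all genes tested. Among 23 genes of mTOR and amino acid sensing, 5 were higher and 0 lower (median 0.07). Counts for the mTOR pathway genes were 3 higher in the fit of the shBruce libraries alone, 2 lower without shBruce Starv replicate 2 and 5 lower without shBruce Starv replicate 3. With trends in transcript length and GC removed, 4 were lower, or 3 with a replicate block added, and DESeq2's Wald test gave 2 lower. Besides Sesn2, the mTOR inhibitor Deptor rose from 161, 119 and 224 in FM to 460.2, 271 and 629 in Starv (log2 fold change 1.43, standard error 0.28, adjusted p = 0.00268), Tsc1 rose by 0.82 and the mTORC1 inhibitor Akt1s1 by 0.61. Mtor had a log2 fold change of -0.38, adjusted p = 0.0632 and Rptor of -0.39, adjusted p = 0.0811.

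Clock genes moved in both directions. Of 16 tested, 8 were higher and 3 lower (median 0.51). Counts for the clock genes were 4 higher in the fit of the shBruce libraries alone and 1 lower without shRenilla FM replicate 1 or 3, shRenilla Starv replicate 1 or 2, shBruce FM replicate 2 or shBruce Starv replicate 2 and in the fit of the shBruce libraries alone. Ciart, a repressor of the clock, rose from 79.6, 79.6 and 83.3 in FM to 333, 451 and 545 in Starv (log2 fold change 2.46, standard error 0.19, adjusted p = 2.6e-06), the output factor Dbp rose from 39.3, 63.9 and 60.5 in FM to 188, 142 and 235 in Starv (log2 fold change 1.79, standard error 0.25, adjusted p = 3.2e-04) and the repressor Bhlhe41 rose from 93.4, 78.5 and 79.3 in FM to 289, 318 and 283 in Starv (log2 fold change 1.82, standard error 0.14, adjusted p = 2.0e-06). Its paralogue Bhlhe40 fell from 926, 1041 and 1009.6 in FM to 382, 553 and 447 in Starv (log2 fold change -1.10, standard error 0.13, adjusted p = 1.1e-04). Nr1d1 rose by 1.08 and Nr1d2 by 1.10, and the activators Arntl (0.06, adjusted p = 0.877) and Clock (-0.38, adjusted p = 0.107) did not pass. Among 14 G1 cyclins and CDK inhibitors, 2 were higher and 2 lower (median 0.06), near the shares over all genes tested (12.4% higher and 10.6% lower). Cdkn1b, which encodes p27, rose from 724, 469 and 945 in FM to 1536, 1678 and 2003 in Starv (log2 fold change 1.29, standard error 0.20, adjusted p = 7.2e-04). The other called as higher, Cdkn1c, had FM and Starv libraries that overlapped, and its call was lost in 10 of the 12 fits that left out 1 library, all but those without shBruce FM replicate 3 and shBruce Starv replicate 3 (log2 fold changes 0.85 to 1.75 over the 12 fits). Ccnd1 (-0.73, adjusted p = 0.0285) and Ccnd3 (-0.75, adjusted p = 0.0148), the D-type cyclins that follow mitogens, were called lower, a call lost for both without shBruce FM replicate 2 (-0.76, adjusted p = 0.0621 for Ccnd1 and -0.69, adjusted p = 0.057 for Ccnd3), and for Ccnd1 also without FM replicate 1 (-0.68, adjusted p = 0.0862) or Starv replicate 2 (-0.74, adjusted p = 0.0553). Of 17 p53 target genes, 2 were higher and 6 lower (median -0.31). Counts for the p53 targets were 3 lower in the fit of the shBruce libraries alone. Plk2, a kinase that is also induced by serum, fell from 8129.6, 7512 and 5508 in FM to 2136, 3121 and 1433 in Starv (log2 fold change -1.66, standard error 0.23, adjusted p = 2.8e-04), Trp53inp1 rose by 1.55, and Mdm2 (-0.22, adjusted p = 0.198) and Cdkn1a (0.52, adjusted p = 0.0974), which encodes p21, did not pass.

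Many of the genes that fell encode secreted signals or are known to be induced by serum. Of 18 chemokines, cytokines and related genes tested, 0 were higher and 13 lower, with a median of -1.88, the lowest of the 27 lists. Ptgs2, which encodes cyclooxygenase 2, fell from 5550.3, 4787 and 3114 in FM to 279, 420.4 and 294 in Starv (log2 fold change -3.75, standard error 0.23, adjusted p = 3.5e-07). Lif, a cytokine of the interleukin 6 family, fell from 1096, 1486 and 864 in FM to 98.9, 99.2 and 80.8 in Starv (log2 fold change -3.63, standard error 0.20, adjusted p = 1.7e-07). Ccl2, the chemokine that attracts monocytes, fell from 1625, 2109 and 1418 in FM to 196, 202 and 81.7 in Starv (log2 fold change -3.45, standard error 0.28, adjusted p = 3.5e-06), and its neighbour Ccl7 fell by 3.02 on the log2 scale. Starv replicate 3 was the lowest library for both chemokines. Has2, a hyaluronan synthase, fell by 3.18 and Tnfaip3, which encodes the NF-kappaB inhibitor A20, by 2.84. Csf1 fell by 1.98 and Hbegf, an EGF receptor ligand, by 1.77. Cxcl1, Cxcl2 and Il6 did not pass the filter on low counts. Cxcl12 (-0.14, adjusted p = 0.607), Vegfa (-0.23, adjusted p = 0.459) and Il11 (-0.36, adjusted p = 0.219) did not pass the test. In shRenilla MEFs, 0 of these members passed as higher and 14 as lower, with a median of -1.97. In edgeR's test of the difference between the lines, 5 of the 18 had an unadjusted p under 0.05, against 3.9% of all genes tested. None passed an adjusted p of 0.05.

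Of 21 immediate-early factors tested, 0 were higher and 13 lower (median -1.12). The orphan receptor Nr4a1 fell from 632, 813 and 886 in FM to 98.9, 131 and 123 in Starv (log2 fold change -2.71, standard error 0.17, adjusted p = 3.5e-07) and Ier3 fell from 1208, 1159.9 and 858 in FM to 248, 164 and 102 in Starv (log2 fold change -2.69, standard error 0.25, adjusted p = 1.6e-05). The AP-1 members Fosl1, Fosl2 and Jun fell by 1.82, 1.77 and 1.76 on the log2 scale and Srf, the factor of the serum response element, by 1.31. Members that did not pass include Fos at -0.74, adjusted p = 0.122 and Egr1 at 0.34, adjusted p = 0.391. Among 19 genes that ERK induces and that restrain it, 1 was higher and 10 lower (median -0.71). Phlda1 fell from 4425, 3371 and 2590.4 in FM to 639.9, 269.9 and 237 in Starv (log2 fold change -3.21, standard error 0.34, adjusted p = 3.9e-05), with Starv replicate 1 above the others. The nuclear ERK phosphatase Dusp5 fell from 799.6, 842 and 437 in FM to 50.5, 90.7 and 150.5 in Starv (log2 fold change -2.77, standard error 0.32, adjusted p = 7.6e-05), Dusp1 by 1.74 and the receptor Epha2 by 2.05. Dusp6 fell by 0.92 and Spry2 by 0.85. Dusp4 had a log2 fold change of 0.81, adjusted p = 0.0778, and the member that rose was the ETS factor Etv1 (1.33, adjusted p = 0.00566). Counts for the ERK feedback genes were 5 lower in the fit of the shBruce libraries alone.

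The 25 tested targets of YAP and SRF all had log2 fold changes below 0, and 12 passed as lower and 0 as higher (median -0.44). The matricellular genes led. Cyr61 fell from 11371, 11156 and 5955 in FM to 882, 1311 and 326 in Starv (log2 fold change -3.50, standard error 0.40, adjusted p = 7.1e-05) and Ctgf fell from 9430.3, 8023 and 3203 in FM to 745, 929 and 369 in Starv (log2 fold change -3.34, standard error 0.38, adjusted p = 6.5e-05), both with FM replicate 3 and Starv replicate 3 the lowest of their groups. Fhl2, an SRF cofactor, fell by 1.30 and the focal adhesion gene Zyx by 1.09. Abundant cytoskeletal genes did not pass, such as Actb (-0.24, adjusted p = 0.539), Acta2 (-0.41, adjusted p = 0.515) and Tagln (-0.27, adjusted p = 0.57), although Actg1 did (-0.95, adjusted p = 0.00181). Counts for the YAP and SRF targets were 7 lower in the fit of the shBruce libraries alone. Of 15 Id genes and outputs of SMAD signalling, 6 were lower and 1 was higher (median -0.44). Id1, an inhibitor of basic helix-loop-helix factors induced by BMP, fell from 731, 745 and 745 in FM to 78.7, 78.96 and 106 in Starv (log2 fold change -3.06, standard error 0.18, adjusted p = 3.5e-07), with FM values that hardly differed. Summed over the list, FM was less even, with normalized counts of 29048, 27049 and 15435 in FM replicates 1, 2 and 3. The sums in Starv were 10575, 10779 and 10534. Id2 fell by 2.03, Id3 by 1.81 and the inhibitory SMAD Smad7 by 1.26. Smad9 was the member that rose (adjusted p = 0.00456). In shRenilla MEFs, 12 of the YAP and SRF targets and 6 of the Id and SMAD genes passed as lower.

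**Figure D3:**
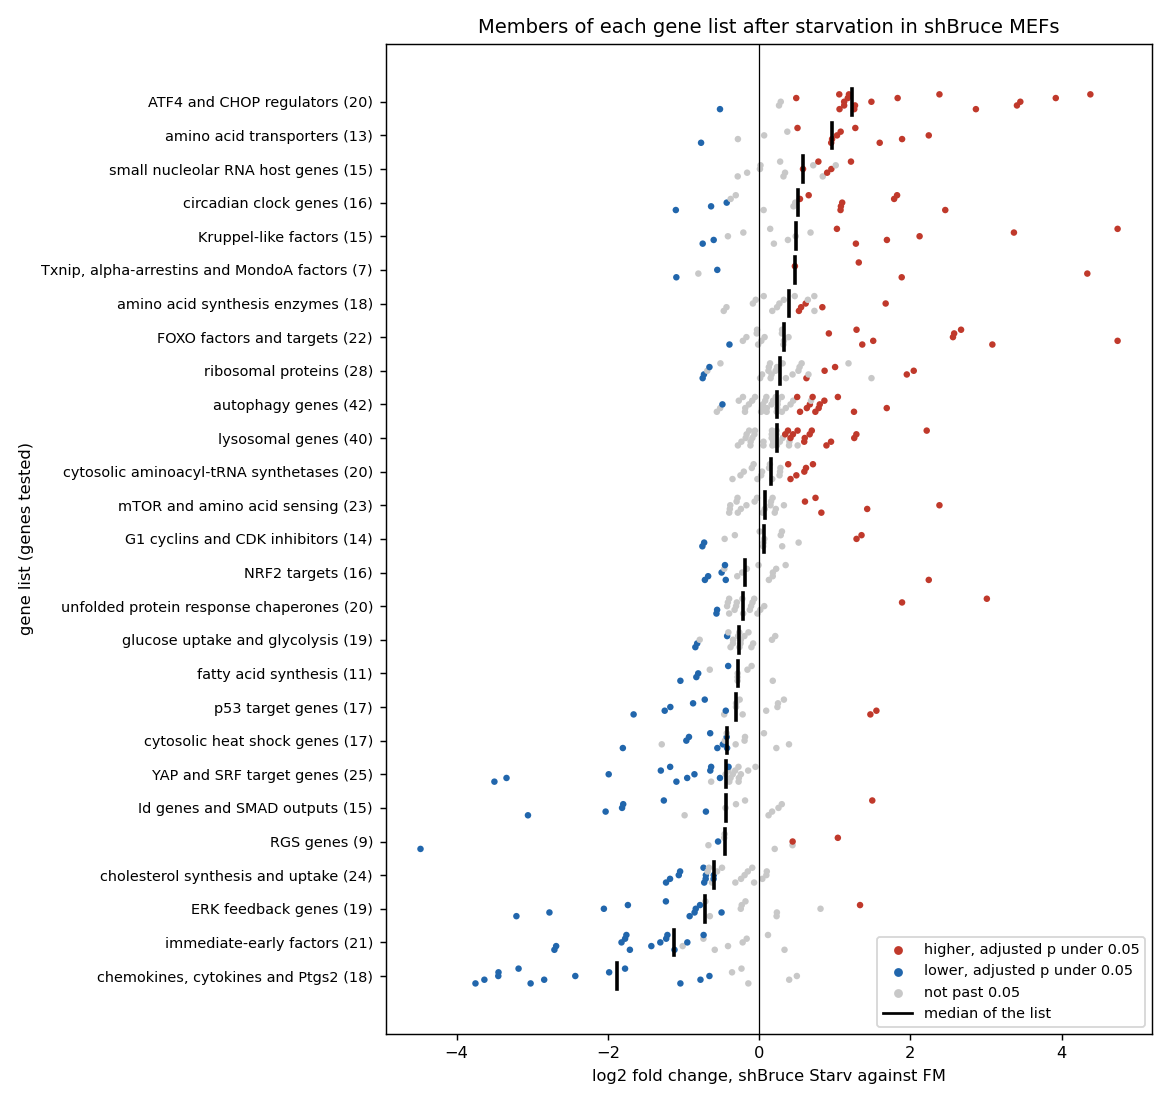
Log2 fold change (Starv against FM, shBruce MEFs) of each tested member of 27 gene lists, ordered by the list's median (black bar), with the number tested in brackets. Red points were higher and blue points lower at an adjusted p under 0.05. The ATF4 and CHOP regulators have the highest median (1.22) and the chemokines, cytokines and Ptgs2 the lowest (-1.88).

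Chaperones and oxidative stress genes were listed in 3 groups. Of 20 chaperones and degradation factors of the unfolded protein response, 2 were higher and 2 lower (median -0.22), where 12.4% of all genes were higher and 10.6% lower. Counts for the unfolded protein response genes were 0 lower in the fit of the shBruce libraries alone, 1 lower without shBruce FM replicate 1, 2 or 3 and 5 lower without shBruce Starv replicate 2 or 3. With trends in transcript length and GC removed, 8 were lower, or 7 with a replicate block added. DESeq2's Wald test gave 5 lower and upper-quartile normalization 1. The members that rose were Herpud1, a membrane protein of endoplasmic reticulum degradation, from 544, 498 and 598 in FM to 4871, 4194 and 4168 in Starv (log2 fold change 3.01, standard error 0.13, adjusted p = 2.0e-08), and Dnajb9, a BiP co-chaperone, from 158, 113 and 205 in FM to 438, 559 and 763 in Starv (log2 fold change 1.89, standard error 0.23, adjusted p = 1.2e-04). BiP itself, Hspa5, had a log2 fold change of -0.42, adjusted p = 0.0567, and Xbp1 of -0.33, adjusted p = 0.21. Of 17 cytosolic heat shock genes, 0 were higher and 8 lower (median -0.43). Counts for the heat shock genes were 3 lower in the fit of the shBruce libraries alone and 5 lower without shBruce FM replicate 2. Hspa8, the constitutive HSP70, fell from 10066, 11284 and 9331 in FM to 5329, 5484 and 4924 in Starv (log2 fold change -0.96, standard error 0.11, adjusted p = 7.7e-05) and Hsph1 fell from 7827, 7369.9 and 6741 in FM to 3153, 5128 and 3241 in Starv (log2 fold change -0.93, standard error 0.16, adjusted p = 0.00158). Hspa1b fell by 1.80 and Hspa1a had -1.29, adjusted p = 0.0634. This pair is nearly identical in sequence, so the division of reads between them is uncertain. Of 16 NRF2 targets, 5 were lower and 1 higher (median -0.19). Counts for the NRF2 targets were 1 lower in the fit of the shBruce libraries alone, 2 lower without shBruce FM replicate 3 and 3 lower without shRenilla FM replicate 1 or 3 or shBruce FM replicate 1. The rise was that of Slc7a11, which is also an ATF4 target. G6pdx of the pentose phosphate pathway fell from 2171, 2439 and 2490.2 in FM to 1247, 1621 and 1444 in Starv (log2 fold change -0.72, standard error 0.12, adjusted p = 8.3e-04) and the thioredoxin reductase Txnrd1 by 0.67, while Nqo1 (-0.46, adjusted p = 0.126) and Hmox1 (0.35, adjusted p = 0.116) did not pass.

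Genes of lipid synthesis were lower in part. SREBP2 drives the cholesterol pathway, and of its 24 listed targets 10 were lower and 0 higher (median -0.60). Srebf2, which encodes SREBP2, fell from 3959, 4863 and 5857 in FM to 1841, 2773 and 2402 in Starv (log2 fold change -1.06, standard error 0.17, adjusted p = 7.0e-04). Nsdhl fell by 1.05 and Sqle, squalene epoxidase, by 0.74. FM replicate 3 stood above the other FM libraries for these genes, with a list median 0.42 above the FM mean on the log2 scale, against -0.29 and -0.15 in replicates 1 and 2. Starv libraries 1 to 3 had medians of -0.43, -0.29 and -0.72, so that of Starv replicate 2 was about that of FM replicate 1. Without any 1 library the number of lower members stayed between 7 and 11, and it was 4 in the fit of the shBruce libraries alone. In shRenilla MEFs, 2 of the 24 were lower (median -0.14), and 6 of the 24 had an unadjusted p under 0.05 in the test of the difference between the lines (3.9% of all genes did), with none past an adjusted p of 0.05. Of 11 fatty acid synthesis genes, 4 were lower and 0 higher (median -0.28), and 2 were lower in the fit of the shBruce libraries alone. The calls were led by the desaturase Fads2, from 1109, 1367 and 1992 in FM to 676, 817 and 675 in Starv (log2 fold change -1.04, standard error 0.18, adjusted p = 0.00126), and Fasn, fatty acid synthase, from 11463, 13311 and 9858 in FM to 7949, 5804 and 6059.6 in Starv (log2 fold change -0.81, standard error 0.15, adjusted p = 0.00253). Of 19 genes of glucose uptake and glycolysis, 3 were lower and 0 higher (median -0.26), where 10.6% of all genes tested were lower and 12.4% higher. Counts for the glycolysis genes were 1 lower without shRenilla FM replicate 1, 2 or 3, shRenilla Starv replicate 1, 2 or 3 or shBruce FM replicate 1, 2 or 3 and in the fit of the shBruce libraries alone and 6 lower without shBruce Starv replicate 1. With trends in transcript length and GC removed, 5 were lower, and with upper-quartile normalization 1 was. The glucose carrier Slc2a1 fell from 1491, 1444 and 1569 in FM to 916, 938 and 700.3 in Starv (log2 fold change -0.82, standard error 0.13, adjusted p = 6.1e-04). The other calls, Pgam1 (-0.84, adjusted p = 0.0391) and Ldha (-0.42, adjusted p = 0.0491), were lost in 9 and 10 of the 12 fits that left out 1 library.

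Ribosomal protein genes differed between all 3 Starv libraries. Of 28 tested, 5 were higher and 3 lower (median 0.27), near the shares over all genes tested (12.4% higher and 10.6% lower). Rpl13 was counted at 3472, 3008 and 4009.6 in FM and at 30740.5, 5922 and 3995 in Starv, and Rpsa at 787, 709.8 and 790.4 and 7511, 1180.1 and 801. For both genes Starv replicate 1, the library with the fewest counts, thus stood several-fold above the other Starv libraries, of which replicate 3 was close to FM. The fitted log2 fold changes of 1.95, adjusted p = 0.0225 and 2.04, adjusted p = 0.0279 became 0.49, adjusted p = 0.0936 and 0.36, adjusted p = 0.193 without it. The list median by library was 0.61, 0.30 and -0.11 on the log2 scale above the FM mean in Starv replicates 1, 2 and 3. Counts for the ribosomal protein genes were 0 higher without shBruce FM replicate 2 or shBruce Starv replicate 1 and in the fit of the shBruce libraries alone, 1 higher without shBruce FM replicate 1, 2 higher without shBruce FM replicate 3, 13 higher without shBruce Starv replicate 3, 0 lower without shBruce FM replicate 1 or 2 and in the fit of the shBruce libraries alone and 1 lower without shBruce Starv replicate 3. The call of Rpl13 was also lost without shBruce FM replicate 1 (1.94, adjusted p = 0.0741) or 2 (1.85, adjusted p = 0.0843), and that of Rpsa without FM replicate 1 (2.06, adjusted p = 0.0827), 2 (1.99, adjusted p = 0.092) or 3 (2.06, adjusted p = 0.0682). Ribosomal protein genes have many processed pseudogenes, which makes the assignment of their reads uncertain. In shRenilla MEFs, 0 were higher and 2 lower, and 8 of the 28 had an unadjusted p under 0.05 for the difference between the lines, against 3.9% of all genes. Of 15 host genes of small nucleolar RNAs, 5 were higher and 0 lower (median 0.58). Snhg12 rose from 637, 569 and 461 in FM to 1405, 1231 and 1236 in Starv (log2 fold change 1.21, standard error 0.16, adjusted p = 2.3e-04) and Snhg5 rose from 1308, 1124 and 1021 in FM to 1784, 2090.2 and 2559 in Starv (log2 fold change 0.90, standard error 0.15, adjusted p = 0.00101). Counts for the snoRNA host genes were 2 higher without shBruce FM replicate 2 and in the fit of the shBruce libraries alone, 3 higher without shBruce FM replicate 1 or 3 or shBruce Starv replicate 1 or 2 and 8 higher without shBruce Starv replicate 3. Upper-quartile normalization and DESeq2's Wald test each gave 8 higher. In shRenilla MEFs, 2 were higher and 0 lower, and 5 of the 15 had an unadjusted p under 0.05 for that difference, again against 3.9% of all genes.

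**Figure D4:**
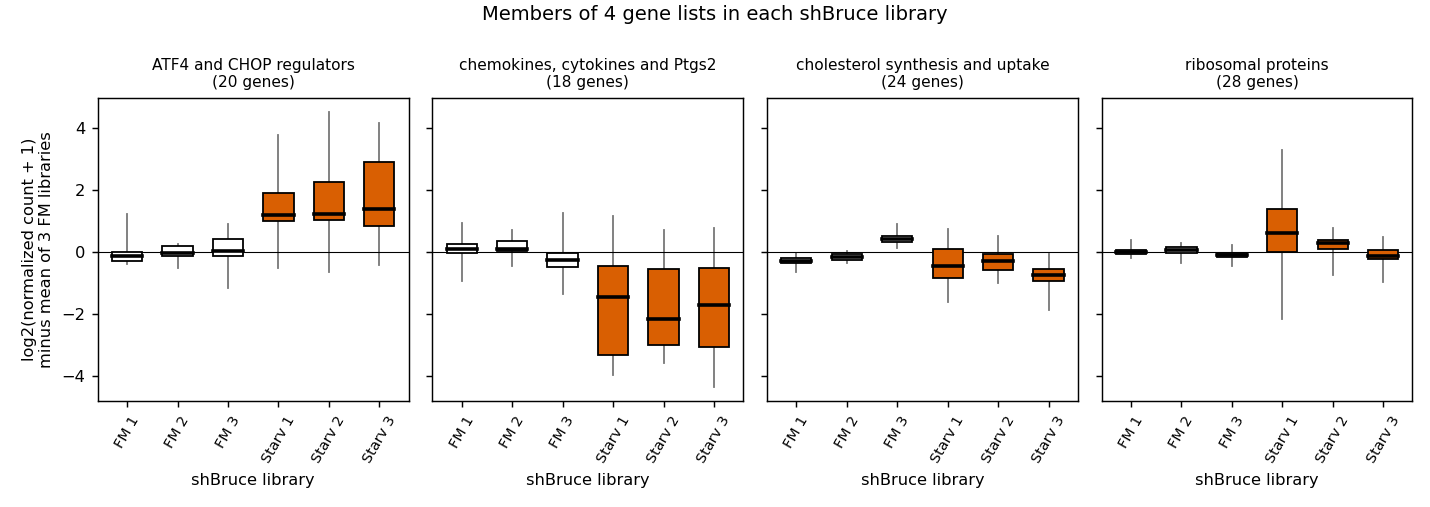
Distribution over the members of 4 gene lists of log2(normalized count + 1) minus the mean of the 3 FM libraries, for each shBruce library, with the median (thick line), the quartiles (box, white for FM and orange for Starv) and the lowest and highest member (thin line). The ATF4 and CHOP regulators have medians of 1.20 to 1.39 in the 3 Starv libraries, while the ribosomal protein genes range from -0.11 in Starv replicate 3 to 0.61 in Starv replicate 1.

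Among the 15 largest well-counted rises without overlap between media, some belonged to none of the lists. Crebrf, a repressor of the factor CREB3 in the unfolded protein response, rose from 142, 139 and 143 in FM to 1488, 1064 and 1729 in Starv (log2 fold change 3.33, standard error 0.19, adjusted p = 3.1e-07). Klhl24, an adaptor of a cullin ubiquitin ligase, rose from 153, 173 and 204 in FM to 973, 1109.7 and 2227 in Starv (log2 fold change 3.03, standard error 0.29, adjusted p = 1.6e-05), highest in Starv replicate 3. Gpr146, an orphan receptor, rose from 12.7, 24.1 and 24.8 in FM to 232, 164 and 224 in Starv (log2 fold change 3.31, standard error 0.25, adjusted p = 2.3e-06). The nuclear receptor Rora, which acts in the clock, rose by 3.16, Adck3, a kinase-like protein of coenzyme Q synthesis, by 3.19, N4bp2l1 by 3.11, the GSK3-binding Frat1 by 3.02 and Bmf, a BH3-only protein that can start apoptosis, by 3.00. The last 5 of these, and Gpr146, were below 50 in every FM library, so a few reads weigh on their fold. Among the 15 largest falls, Sema7a, a membrane-anchored semaphorin, fell from 726, 880.4 and 335 in FM to 48.4, 46.9 and 112 in Starv (log2 fold change -3.17, standard error 0.36, adjusted p = 7.3e-05). Mfsd2a, a carrier of lysophosphatidylcholine, fell from 226, 223 and 169.6 in FM to 34.3, 35.2 and 14.9 in Starv (log2 fold change -2.92, standard error 0.27, adjusted p = 1.2e-05) and Cd300lb, a receptor better known from myeloid cells, from 123, 179 and 50.6 in FM to 18.2, 16.00 and 5.57 in Starv (log2 fold change -3.24, standard error 0.47, adjusted p = 4.1e-04). No call of the genes of this paragraph was lost without any 1 library or in an alternative fit that tested them.

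Many of the smaller calls depended on the fit over both lines, in which all 4 groups share 1 estimate of the spread of each gene. Replicates differed most in shBruce Starv (SD of the log2 difference 0.556 to 0.756) and least in shRenilla (0.211 to 0.32). Fitted alone, the shBruce line had fewer calls than in the joint fit (552 and 404, against 1506 and 1284). The shRenilla line had more (2681 and 2332, against 1178 and 883). The part of the shared spread in these calls was not tested. In the fit of the 6 shBruce libraries alone, the calls of Asns, Bcat1, Cars, Aars, Sars, Arrdc1, Mlxip, Cited2, Klf16, Rgs2, Rgs12, Rgs19, Smad9, Cdkn1c, Ccnd3, Ccnd1, Txnrd1, Atg16l1, Rragd, Akt1s1, Sqle, Pgam1, Ldha, Rpsa, Rpl13, Cd68, Tubb3, Dusp6, Spry2, Nr1d1, Nbr1, Naglu and Neu1 did not pass.

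The response of the knockdown line was set beside that of the control line, which shares no library with it. In shRenilla MEFs, 1178 genes were higher (9.69% of those tested) and 883 lower (7.27%) in the joint fit. These counts were below those of shBruce MEFs (1506 and 1284). With each line fitted alone, shRenilla MEFs had more calls (2681 higher and 2332 lower, against 552 and 404). They also had more genes without overlap between media (3144 higher and 3222 lower, against 1963 and 1796). The counts thus do not show which line responded more, and the overlaps below rest on the joint fit. Of the genes higher in shBruce MEFs, 866 were also higher in shRenilla MEFs, which is 57.5% of the shBruce and 73.5% of the shRenilla list. For lower genes the overlap was 670, or 52.2% and 75.9%. No gene was called in opposite directions. Of the 1506 genes higher in shBruce MEFs, 1469 had a log2 fold change above 0 in shRenilla MEFs, and of the 1284 lower genes 1269 had one below 0. Across the 12154 genes, which are not independent replicates, Pearson's r of the log2 fold changes was 0.78 and Spearman's rho 0.69.

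A test of the difference between the lines found 0 genes (0% of those tested) at an adjusted p under 0.05 with edgeR, and likewise 0 with DESeq2's Wald test and with limma-voom. The smallest adjusted p was 0.806, and 474 genes (3.9% of those tested) had an unadjusted p under 0.05. Without shBruce Starv replicate 3, 3028 of 12278 genes had an unadjusted p under 0.05 in edgeR's test, still with 0 past adjustment. The 95% confidence interval of the difference had a median half-width of 0.55 on the log2 scale, so the absence of calls does not show that the lines responded alike. The log2 fold change of Txnip was 4.34 in shBruce and 3.66 in shRenilla MEFs, that of Trib3 3.92 in shBruce and 4.16 in shRenilla MEFs, that of Ddit3 3.45 in shBruce and 2.84 in shRenilla MEFs, that of Klf11 3.37 in shBruce and 3.02 in shRenilla MEFs and that of Rgs16 -4.48 in shBruce and -3.76 in shRenilla MEFs. Their differences ranged from -0.72 to 0.68, with unadjusted p-values from 0.0235 for Ddit3 to 0.34 for Trib3 in edgeR's test. The 5 genes with the smallest interaction p, among those whose mean normalized count reached 50 in at least 1 of the 4 groups, are given for orientation. Adcy7, an adenylyl cyclase, fell from 1302, 1409 and 1597 in FM to 608, 759.7 and 672 in Starv in shBruce MEFs and stood at 1312, 1263 and 1387 in FM and 1104, 1106 and 975 in Starv of shRenilla MEFs (difference -0.76, standard error 0.17, edgeR unadjusted p = 7.1e-04). Dpp7, a lysosomal dipeptidase, rose from 856, 976 and 849 in FM to 1916, 1928 and 2045 in Starv in shBruce MEFs and from 1086, 1175 and 1094 to 1625, 1521 and 1714 in shRenilla MEFs (difference 0.60, edgeR unadjusted p = 0.0013). The difference was 0.76 for Bhlhe41, 1.19 for Rps16 and -1.36 for 4933431E20Rik, which rose in shRenilla MEFs (1.47) and had a log2 fold change of 0.10, adjusted p = 0.731 in shBruce MEFs. None of these 5 passed after adjustment.

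**Figure D5:**
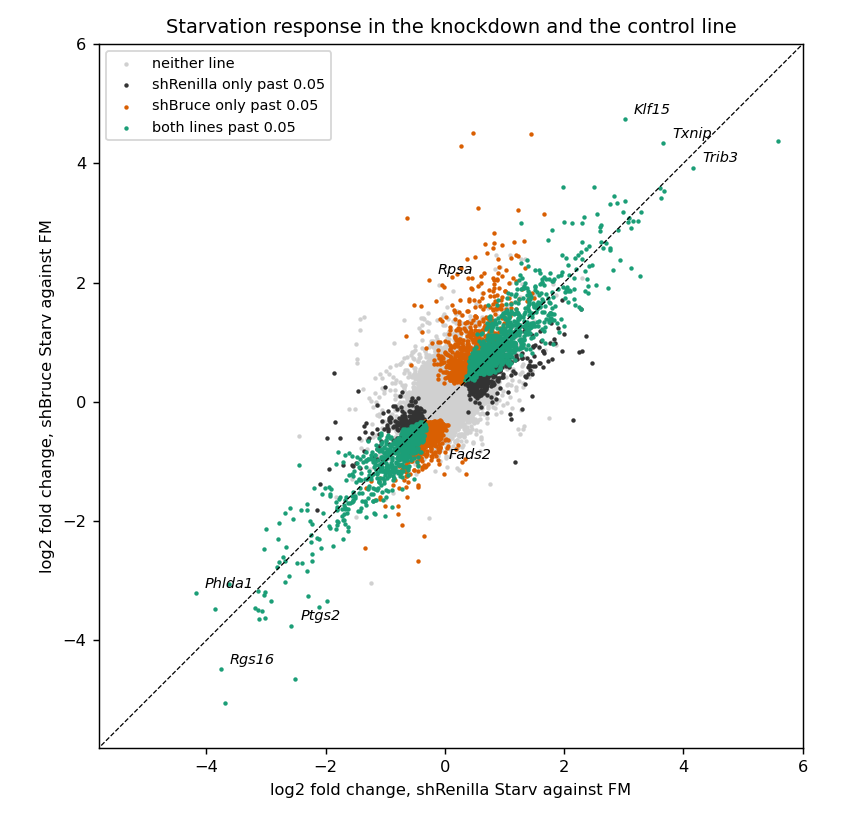
Log2 fold change after starvation of the 12154 genes tested in shBruce MEFs (vertical) against shRenilla MEFs (horizontal), with the dashed line at equal change. Green genes passed an adjusted p of 0.05 in both lines (866 higher and 670 lower in both), orange ones in shBruce and black ones in shRenilla MEFs alone, and no gene passed the test of the difference. Trib3 lies near the dashed line, while Txnip and Rgs16 show a somewhat larger change in shBruce than in shRenilla MEFs. Rpsa lies well above the line, and its shBruce log2 fold change was 0.36 without Starv replicate 1.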

How the data were processed

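RNA-Seq counts of 24062 gene symbols in 12 libraries were used. Per the labels and the study's methods, RNA was extracted with TRIzol, enriched for poly(A) RNA and sequenced single-end. The authors removed rRNA reads, aligned the rest to mm10 with STAR 2.4.0d and deposited HTSeq 0.5.4p3 counts per gene, and their processing notes also name R 3.2.0, edgeR and limma. The annotation, strand setting and overlap mode of counting are not given in the sources used here, so reads of overlapping or antisense genes cannot be told apart. Of the symbols, 27 had turned into dates (0.296% of counts) and 2 were repeated. None of these is named.

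Libraries were grouped by their titles. Counts were scaled by TMM, and 12154 genes that passed filterByExpr were fitted over all 12 libraries with edgeR 4.0.16 (R 4.3.3, limma 3.58.1) and its quasi-likelihood test, without a replicate block. P-values are two-sided, and adjusted p-values (Benjamini-Hochberg) cover every gene in the fit. "Higher" and "lower" mean an adjusted p under 0.05, and a normalized count is a count scaled by the TMM library size. Alternatives were DESeq2 1.42.0, limma-voom, other normalizations and filters, a replicate block, length and GC trends removed (12051 genes), a fit of each line alone and leaving out each library. Tested on simulated data for shBruce Starv against FM (12052 genes), the fit recovered 89 of 100 genes changed 2-fold and 32 of 100 changed 1.5-fold, with 3 false calls. The simulation gave each gene the same spread in all groups and changed well-counted genes only. It left out the wider spread of the real shBruce Starv libraries, so these rates need not hold for the real comparison. Python 3.11.15 served for the tables (pandas 2.3.3, numpy 2.4.6) and the plots (matplotlib 3.10.9).

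The members and the 27 gene lists were chosen with earlier results of these data known. Genes were named by a rule: the 5 marking genes and Birc6, the 15 largest rises and falls among genes whose mean normalized count reached 50 in the medium where they were higher and whose media did not overlap, up to 5 rising and 5 falling members of each list, and the 5 genes with the smallest interaction p whose mean reached 50 in at least 1 group. Further list members were named for their known role, after their values were seen, and some list members are not reported here. Positions and transcript lengths are from GENCODE (GRCm38), matched for 22724 symbols directly and 934 through older symbols, and promoter sequences are from RefSeq (GRCm38.p6).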

Additional observations from a re-analysis of the deposited data

Results flagged for a closer look

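Rps16, a ribosomal protein gene, moved in opposite directions in the lines, with no overlap between media in either. Its normalized count was 76.5, 82.7 and 103 in FM and 137, 152 and 117 in Starv of shBruce MEFs (log2 fold change 0.63, edgeR adjusted p = 0.0431). In shRenilla MEFs it was 70.2, 90.5 and 60.04 in FM and 40.7, 50.2 and 58.1 in Starv (-0.57, adjusted p = 0.0851). The difference between the lines was 1.19 (edgeR unadjusted p = 0.00141, adjusted p = 0.806), so it did not pass after adjustment over all genes. The call in shBruce MEFs was lost in 9 of the 12 fits that left out 1 library, all but those without shRenilla FM replicate 2, shBruce FM replicate 3 and shBruce Starv replicate 3 (log2 fold changes 0.52 to 0.76 over the 12 fits). In all, 16 of the 12154 genes tested had libraries that did not overlap between media and moved in opposite directions in the lines. For comparison, 1963 genes were higher and 1796 lower without overlap in shBruce MEFs, and 3144 and 3222 in shRenilla MEFs.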

How the results depend on the processing

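Against 1506 genes higher and 1284 lower in shBruce MEFs, a fit of the 6 shBruce libraries alone gave 552 and 404 (11787 genes tested), and a threshold of at least 2-fold gave 633 and 287. Of the settings that stayed within 1.5 times, length and GC trends removed gave 1887 and 1854 and limma-voom 1424 and 1324. Leaving out 1 library gave 975 to 1974 higher and 880 to 2035 lower. For shRenilla MEFs (1178 and 883), its own libraries gave 2681 and 2332, at least 2-fold 470 and 256, and leaving out 1 library 671 to 1780 and 462 to 1432. Upper-quartile normalization moved the median of all genes from 0.02 to 0.11. The difference between the lines had 0 calls in every fit, and a fit of each line alone gives no such difference. Its number of genes at an unadjusted p under 0.05 in edgeR's test hinged on 1 library. It was 3028 of 12278 without shBruce Starv replicate 3, against 474 of 12154 in the main fit and 205 to 786 without any other library. Of the 165 genes named by the rule, 163 were called, and 105 kept their call or its absence in every alternative that tested them. List members named only for their known role, such as those that did not pass, are not in this set. The gene 4933431E20Rik changed sign, with a log2 fold change of -0.043 without shBruce Starv replicate 3 and of up to 0.18 without the other libraries. The cause of these changes was not tested. Same-numbered FM and Starv libraries had correlations of 0.01, 0.03 and 0.12 in shBruce and 0.11, -0.39 and -0.41 in shRenilla MEFs. Differently numbered ones had correlations of -0.1 to 0.09 in shBruce and -0.32 to 0.51 in shRenilla MEFs. The libraries also differed in trends with transcript length, so these values cannot decide whether the numbers pair them. With the replicate block, 1316 genes were higher and 1134 lower in shBruce and 1043 and 727 in shRenilla MEFs. In simulated data of this size, with the same spread in every group, 32 of 100 changes of 1.5-fold were called.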
